A study of Arabidopsis thaliana with 32 samples.

Results

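The genes described here are 28 probe sets whose shoot signal stood high 9 h after a heat shock and was lower both 6 h earlier and 12 h later, chosen from 22746 probe sets that are not array controls. A probe set was taken where the mean log2(signal + 11) of shoots at 9 h of recovery was at least 1.2 above the means at 3 h and at 21 h of recovery, and where the mean signal at 9 h was at least 100. Symbols of some heat shock, glutathione transferase and sugar transporter families, and GI, were to be left out. No probe set that met the thresholds carried such a symbol, though AT5G37670 and AT1G54050, listed by locus only, are known as small heat shock protein genes and were kept. The shoot arrays at 3, 9 and 21 h of recovery therefore chose the genes, and differences among them are given as a description only. A single gene was listed for 10 of the 28, 2 genes for 2, and for 16 no gene was listed in the table used here, so these go by their probe set names.

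The plants were Col-0 seedlings of Arabidopsis, a small annual of the cabbage family, kept at 24 °C in 16 h days on Murashige and Skoog medium. On day 16, 3 h after the lights came on, they were moved to 38 °C. Shoots and roots were taken during heat, at 0.25, 0.5, 1 and 3 h, and during recovery at 25 °C, at 1, 3, 9 and 21 h after heat ended. Each tissue and time had 2 arrays, 32 in all. All groups had been heated, since no unheated plants were among the samples. Samples at 3, 9 and 21 h of recovery were taken 9, 15 and 3 h after lights on, so time since heat and hour of the day cannot be told apart. Those at 0.25, 1 and 3 h of heat were taken 3.25, 4 and 6 h after lights on. Time in heat and hour of the day cannot be told apart either.

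Plants answer heat within minutes by making heat shock proteins, chaperones that hold unfolded proteins, and their transcripts decline after the heat ends. Many Arabidopsis transcripts also rise and fall each day under the control of light, sugar supply and the circadian clock, and some of them are highest near dusk. The 9 h sample was taken late in the light period. Small heat shock proteins, such as those of AT5G37670 and AT1G54050, bind unfolding proteins without using ATP. AT1G47400 encodes a short peptide of the IRON MAN family, whose members accumulate when iron is short and promote iron uptake. AT5G59670 encodes a receptor-like kinase with leucine-rich repeats, AT1G68600 a protein of the aluminium-activated malate transporter family, AT1G53070 a protein with a legume lectin domain, AT3G60420 a protein of the phosphoglycerate mutase family and AT2G23910 a protein with an NAD(P)-binding fold. No role is given for AT5G05250 and AT2G41730.

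Signals are linear values scaled by the authors to a like mean on every array. A signal of 1 or 2 is close to the bottom of the scale and median signals per array were 31.6 to 49.0. Between the replicates of a group the log2 signals had correlations of 0.984 to 0.993. The leaf genes LHCB4.1, LHCB4.2 and RCA were at 1574 or more on all shoot arrays and at most 617 on all root arrays. PYK10, a root beta-glucosidase gene, was at 167 to 892 in shoots and 1837 to 3774 in roots. The root genes EXPA7 and EXPA18 had low signals that overlapped between the tissues. EXPA7 was at 3.87 to 23.5 in shoots and 14.3 to 105 in roots, and EXPA18 at 11.5 to 30.5 and 17.0 to 64.1. The 2 shoot arrays at 9 h were not alike in ribosomal RNA: the 25S signal was 1270.3 on replicate 1 and 88.6 on replicate 2, and the actin 3′ to 5′ signal ratio was 9.28 and 3.88. At 3 h of recovery the 25S signal was 1269.5 to 1308, and at 21 h it was 100.2 to 108. With 9 h replicate 1 left out, the rule gave 28 probe sets, 25 of them among the 28 described, and AT2G41730, AT1G53070 and AT2G23910 were no longer taken. With replicate 2 left out it gave 36, 26 of them among the 28. The labels do not say whether replicates were separate cultures, so a p-value here speaks only of how far these arrays lie apart, which can be a technical matter.

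In shoots, 22 of the 28 had their highest mean of all 8 times at 9 h of recovery, and the same 22 had both 9 h arrays above all 14 other shoot arrays. The share among all probe sets was 5.49%, and since 6 of the 16 shoot arrays were used to choose the genes nothing is read from the difference. The other 6 were higher during heat than at 9 h. The smaller of the 2 excesses of 9 h over 3 h and 21 h was largest for 249606_at, at 3.60 on the log2 scale, and smallest for 258063_at, which lay at the limit. Next inside the limit were 249325_at at 1.26 and 245253_at at 1.28. Just outside lay QQS, an orphan gene linked to starch content, at 1.17, probe set 256766_at at 1.14 and AT1G19960 at 1.13. A further 10 probe sets met both excesses with a 9 h signal under 100. By the test used below, a called difference being one with an adjusted p below 0.05 and a size of 1 or more on the log2 scale, 2.99% of all probe sets tested were higher and 2.54% lower at 9 h than at 3 h in shoots, and 2.95% were higher and 2.24% lower than at 21 h. All 28 were called higher in both, and the rule itself fixes the size part of that call.

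**Figure D1:**
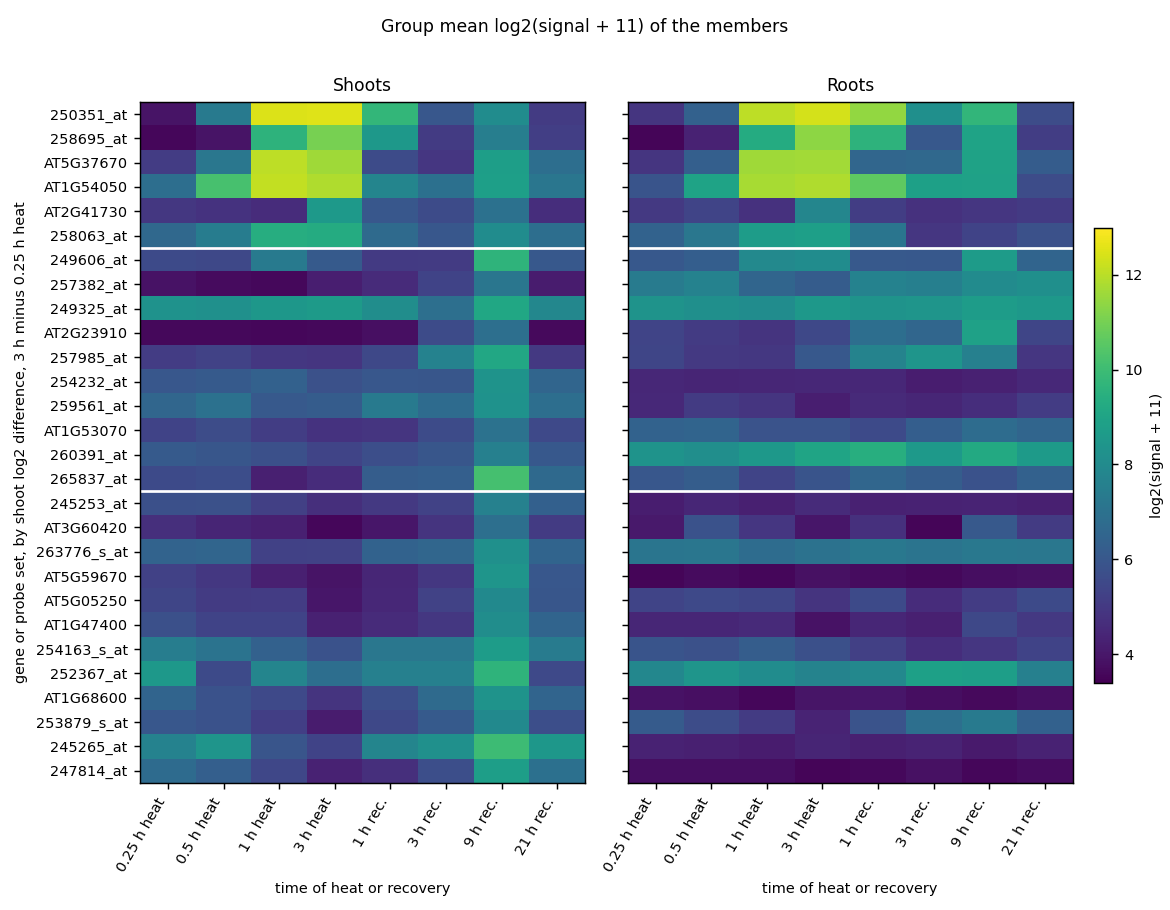
Mean log2(signal + 11) of the 28 genes or probe sets (rows) in shoots (left) and roots (right) at 4 times of heat and 4 of recovery (columns), 2 arrays per cell. White lines part the 6 rows called higher at 3 h than at 0.25 h of heat in shoots (top), the 10 not called and the 12 called lower (bottom), and the 9 h column stands out in shoots in every row between its neighbours at 3 h and 21 h.

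AT5G59670, the receptor-like kinase gene, had the largest value among the named genes for the smaller of the 2 excesses, at 2.39. In shoots during recovery its signals were 27.5 and 14.2 (3 h), 293 and 362 (9 h) and 36.8 and 75.7 (21 h). At 3 h of heat they were 3.66 and 4.17. Both 9 h arrays were thus several times above every other shoot array, while no root array exceeded 4.24.

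AT1G47400, the IRON MAN gene, read 43.5 and 6.38 at 3 h, 274 and 252 at 9 h, then 43.1 and 141 at 21 h in shoots. The 9 h arrays were close together and the arrays at the other times were not. AT5G05250 followed a like course, with 46.9 and 15.6 at 3 h, 244 and 228 at 9 h, then 30.8 and 85.1 at 21 h. Probe set 265837_at read 121 and 35.4 at 3 h, 1071 and 1196 at 9 h, then 45.7 and 175 at 21 h. For these 3, replicate 1 was over 1 log2 unit higher at 3 h and replicate 2 over 1 log2 unit higher at 21 h. At 21 h 5 of the 28 were over 1 unit higher in replicate 2, the other two being 245265_at (237 and 508) and 259561_at (62.6 and 172), and none in replicate 1. Among all probe sets with a mean of at least 20, 0.2% differed that much either way. Without replicate 1 of the 21 h shoots the smaller excess was 0.85 for AT1G47400, 0.96 for 245265_at and 0.78 for 259561_at, all under the limit of 1.2.

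AT1G68600, of the malate transporter family, read 92.1 and 95.1 at 3 h, 359 and 276 at 9 h, then 78.2 and 81.2 at 21 h in shoots. Root arrays were all at or below 7.14. AT3G60420 read 18.0 and 17.4 at 3 h, 92.7 and 130.3 at 9 h, then 15.7 and 31.0 at 21 h. AT1G53070, the lectin-domain gene, read 49.7 and 28.4, then 143 and 98.7, then 32.1 and 37.1 at the same times. For these 3 genes both 9 h arrays lay above every other shoot array. AT2G23910 stood at 0.511 to 4.37 on all shoot arrays up to 1 h of recovery, and then read 36.2 and 38.3 (3 h), 118 and 98.5 (9 h) and 2.34 and 0.563 (21 h). Its signal was thus near the bottom of the scale outside the middle of recovery.

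**Figure D2:**
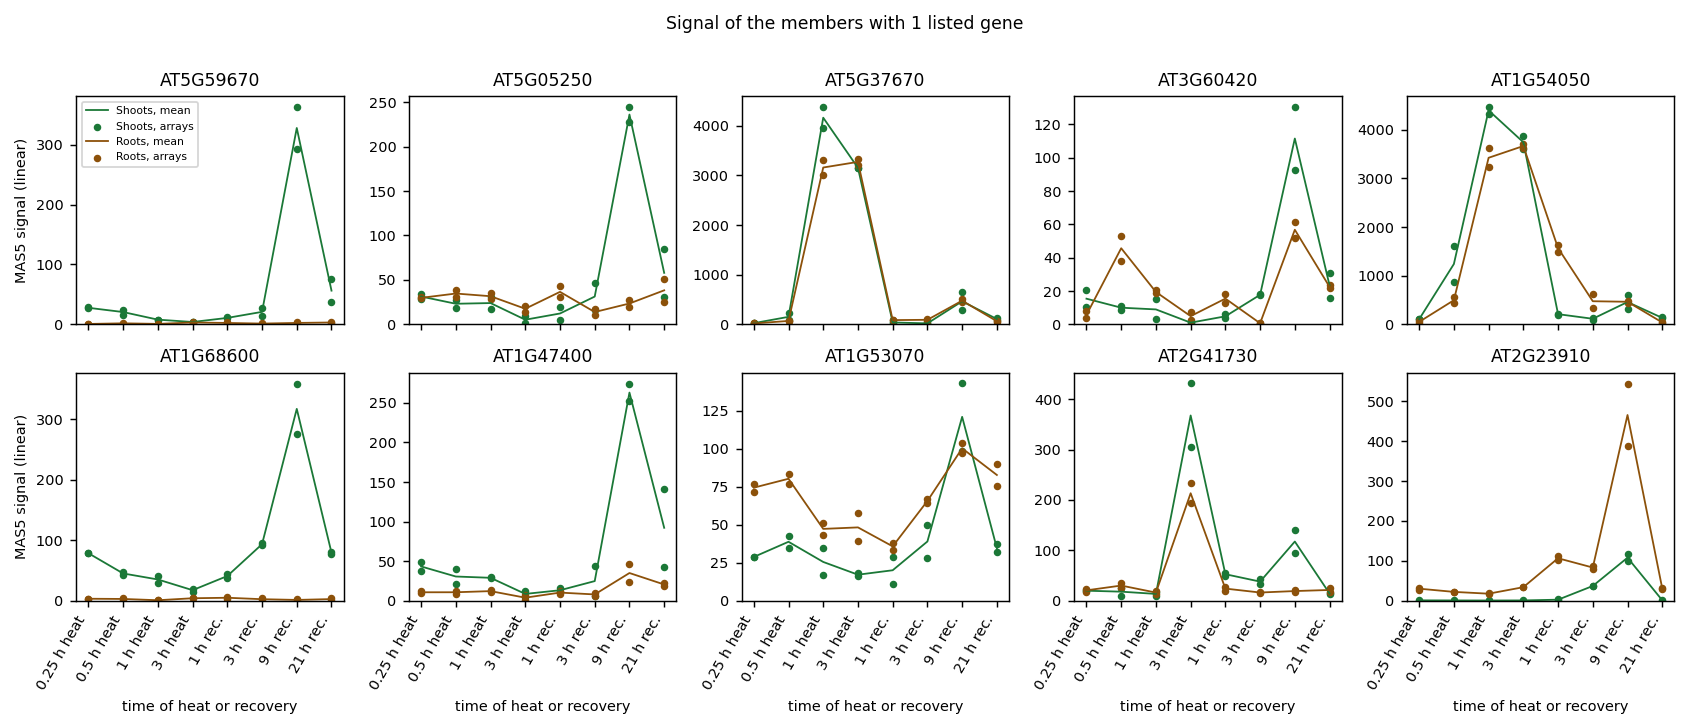
Linear signal of the 10 genes with 1 listed gene at 8 times in shoots (green) and roots (brown). Points are single arrays and lines join group means of 2 arrays; AT5G59670 and AT1G68600 are at or below 7.14 on all root arrays, and the lowest signal of AT5G37670 and AT1G54050 at 1 and 3 h of heat in either tissue is 3012.

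Both small heat shock genes were far higher in heat than at 9 h. AT5G37670 read 25.1 and 22.7 at 0.25 h, 4374 and 3950 at 1 h, then 3159 and 3146 at 3 h of heat in shoots. In recovery it read 46.0 and 30.2 at 1 h, 21.1 and 18.0 at 3 h, 642 and 285 at 9 h, then 132 and 81.9 at 21 h. At 3 h of recovery the signal was thus slightly below that at 0.25 h of heat, and both 9 h arrays stood well above it. AT1G54050 read 88.9 and 139.9 at 3 h, 595 and 322 at 9 h, then 142 and 123 at 21 h of recovery, after 3879 and 3605 at 3 h of heat. Probe set 250351_at read 47.3 and 61.4 at 3 h, 364 and 184 at 9 h, then 27.5 and 17.7 at 21 h, after 5916 and 5824 at 3 h of heat. Probe set 258695_at read 18.0 and 28.6, then 217 and 132, then 31.9 and 20.2 at the same recovery times, after 1976 and 2212 at 3 h of heat. AT2G41730, measured by a probe set that its maker's suffix marks as open to cross-hybridization, read 33.3 and 42.9, then 140.2 and 95.0, then 13.5 and 15.6, after 304 and 431. In AT5G37670, AT1G54050, 250351_at, 258695_at and AT2G41730 the 9 h signal was higher on replicate 1, the array with the high 25S signal, whose part in the result was not tested. The sixth gene with a heat maximum, 258063_at, did not show this, with 251 and 266 at 9 h.

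The genes divided by their course in heat, which the rule did not use. At 3 h against 0.25 h of heat in shoots 6 of the 28 rose, 12 fell and 10 were not called. Among all 16782 probe sets tested 6.02% rose and 8.15% fell. The median difference of the 28 was -0.63 on the log2 scale, against -0.11 for all tested. All 28 passed the filter on low signal, which the 9 h shoot signal of at least 100 in the rule made nearly certain. The risers were the 6 with a heat maximum: 250351_at by 8.61 ± 0.39, 258695_at by 7.45 ± 0.27, AT5G37670 by 6.50 ± 0.32, AT1G54050 by 5.01 ± 0.27, AT2G41730 by 3.59 ± 0.23 and 258063_at by 2.65 ± 0.15 log2 units (SE, 2 arrays each, limma adjusted p at most 1.22e-12). For all 6, both arrays at 3 h lay above both at 0.25 h, which calls of this size make likely, so it adds no support.

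The 12 that fell included 5 named genes. AT1G68600 read 20.2 and 15.1 at 3 h of heat, against 78.6 and 78.8 at 0.25 h, a log2 difference of -1.65 ± 0.19 (adjusted p 5.00e-08). AT1G47400 read 12.9 and 4.65 at 3 h, against 38.1 and 48.8 at 0.25 h (-1.49 ± 0.39, adjusted p 0.0025). AT5G59670 read 3.66 and 4.17, against 28.1 and 27.1 (-1.37 ± 0.22, adjusted p 9.99e-06). AT5G05250 read 1.41 and 8.99, against 34.3 and 28.3 (-1.42 ± 0.36, adjusted p 0.0016). The arrays of the 2 times did not overlap for any of these genes, which the calls themselves make likely. AT3G60420 read 0.919 and 1.11, against 10.4 and 20.3, and fell by 1.11 on the log2 scale. Without replicate 2 of the 0.25 h shoots its difference was -0.84 and no longer counted as called. The largest decreases were those of 247814_at, with 11.1 and 7.49 at 3 h, against 99.1 and 93.5 at 0.25 h (-2.41 ± 0.24), and of 245265_at, with 31.3 and 28.1, against 179.7 and 199 (-2.30 ± 0.25). The other 5 probe sets that fell did so by 1.02 to 1.87 log2 units.

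These decreases depended on the constant added before the logarithm, because the signals at 3 h of heat were low. With 44 in place of 11, 4 of the 12 were still called, namely 247814_at, 245265_at, 252367_at and 254163_s_at. At 3 h of heat the shoot 25S signal was 2400 to 2411 and the actin ratio 13.2 to 14.1, against 112 to 179.6 and 3.68 to 5.81 at 0.25 h. The part of these values in the differences was not tested.

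By 1 h against 0.25 h of heat 6 genes had risen and 6 had fallen, against 3.1% and 2.81% of all tested. The median was -0.36, against -0.11 for all tested. The risers were 250351_at, AT5G37670, 258695_at, AT1G54050, 258063_at and 249606_at, and AT2G41730 was not among them, with 17.5 and 9.95 at 1 h, against 19.1 and 21.1 at 0.25 h. Within the heat period its signal stood high at 3 h only. Probe set 249606_at read 149 and 151 at 1 h, against 36.7 and 35.9 at 0.25 h (1.77 ± 0.10, adjusted p 2.44e-13), and was lower again at 3 h of heat. The named gene among those that fell was AT5G59670, with 7.62 and 8.08 at 1 h, against 28.1 and 27.1 at 0.25 h (-1.03 ± 0.22, adjusted p 0.000613). After 75th percentile scaling its difference fell just short of the limit of 1. The largest decrease was that of 245265_at, with 50.3 and 50.5, against 179.7 and 199 (-1.70 ± 0.25). With 44 added, 1 of these 6 decreases was still called. The shoot 25S signal was 1789 to 2044 at 1 h, against 112 to 179.6 at 0.25 h, and the actin ratio at 1 h was 14.9 on replicate 1 and 4.72 on replicate 2. Their part in the differences was not tested.

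In the first hour after the heat, 6 of the 28 rose and 7 fell in shoots relative to 3 h of heat, against 6.89% and 4.57% of all tested. The median was 0.34, against 0.14 for all tested. The 7 that fell were the 6 with a heat maximum and 249606_at. AT5G37670 read 46.0 and 30.2 at 1 h of recovery, against 3159 and 3146 at 3 h of heat, a fall by 6.03 log2 units. AT1G54050 fell by 4.09 and AT2G41730 by 2.55. The 6 that rose had no named gene among them. The largest increase was that of 245265_at, with 227 and 189 at 1 h of recovery, against 31.3 and 28.1 at 3 h of heat (2.42 ± 0.25, adjusted p 1.67e-08), followed by 265837_at (1.59 ± 0.39) and 254163_s_at (1.38 ± 0.16). With 44 added, 2 of the 6 were still called. The comparison shares its 3 h arrays with that during heat. AT1G47400 was not called, with 10.8 and 15.9 at 1 h of recovery, against 12.9 and 4.65 at 3 h of heat, nor was AT5G59670, with 11.7 and 9.83 at 1 h of recovery, against 3.66 and 4.17 at 3 h of heat (0.54 ± 0.22).

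Roots gave arrays that the rule did not use. Whole tissues were measured, so more cells of a type and more RNA per cell cannot be told apart. At 9 h against 3 h of recovery in roots 7 of the 28 were higher, none was lower and 21 were not called, against 1.28% higher and 2.17% lower among all tested. At an unadjusted p under 0.05, 13 of the 28 differed in either direction, against 37.5% of all tested. The median difference was 0.28, against -0.02 for all tested. At 9 h against 21 h, 9 were higher, none was lower and 19 were not called, against 1.11% higher and 0.924% lower. At an unadjusted p under 0.05, 13 differed in either direction, against 22.2% of all tested. The median was 0.15, against -0.01 for all tested. The comparisons share the 9 h arrays. For 7 of the 28 no root array passed a signal of 30, and these were tested only because of their shoot signals. A decrease in roots could hardly be measured for them, so the lack of lower calls says little about these 7. The root 25S signal was 279 to 571 at 9 h, against 2134 to 2320 at 3 h and 339 to 572 at 21 h, and its part was not tested. Both 9 h root arrays lay above all 14 other root arrays for 6 of the 28, against 3.81% of all probe sets.

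AT2G23910 was the named gene with the largest root difference of 9 h over 21 h. It read 79.7 and 87.0 at 3 h, 544 and 387 at 9 h, then 30.5 and 31.6 at 21 h in roots. The log2 difference of 9 h over 3 h was 2.32 ± 0.15 (adjusted p 4.56e-11) and of 9 h over 21 h 3.48 ± 0.15 (adjusted p 7.46e-15). Both root arrays at 9 h were far above those at every other root time, the nearest being 111 and 102 at 1 h of recovery.

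AT5G37670 read 66.7 and 116 at 3 h, 502 and 452 at 9 h, then 76.9 and 48.5 at 21 h in roots. It was higher at 9 h than at 3 h by 2.29 ± 0.32 (adjusted p 1.02e-05) and than at 21 h by 2.75 ± 0.32 (adjusted p 9.72e-07). As in shoots, the heat shock gene thus read higher at 9 h than at the times on either side. AT1G54050 read 336 and 614 at 3 h, 448 and 480.1 at 9 h, then 34.0 and 43.6 at 21 h in roots. It was higher at 9 h than at 21 h (3.26 ± 0.27, adjusted p 3.39e-09), and the difference from 3 h was 0.03 ± 0.27 with overlapping arrays. At 1 h of recovery its signal had been 218 and 200.2 in shoots, against 1496 and 1636 in roots.

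Among probe sets without a listed gene, 249606_at read 53.1 and 55.8 at 3 h, 428 and 372 at 9 h, then 80.6 and 77.7 at 21 h in roots (2.65 ± 0.10 over 3 h and 2.19 ± 0.10 over 21 h). Probe set 258695_at read 33.0 and 87.8, then 507 and 476, then 28.9 and 20.7 (2.93 ± 0.27 and 3.82 ± 0.27). Probe set 250351_at read 217 and 362, then 838 and 817, then 39.6 and 37.3 (1.53 ± 0.39 and 4.08 ± 0.39). For all 3 the 9 h arrays lay above both neighbouring times. The difference of 250351_at from 3 h was 1.17 without replicate 1 of the 3 h roots, with an adjusted p of 0.088. Probe set 257985_at differed, with 307 and 360 at 3 h, 192 and 167 at 9 h, and signals under 30 at 21 h in roots. It was higher at 9 h than at 21 h (2.67 ± 0.18) and 0.85 ± 0.18 lower than at 3 h, short of the limit of 1, while in shoots it read 164 and 224 at 3 h, 587 and 527 at 9 h, then 24.3 and 17.6 at 21 h.

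AT3G60420 read 0.614 and 0.693 at 3 h, 52.1 and 61.4 at 9 h, then 23.4 and 21.6 at 21 h in roots. It was higher at 9 h than at 3 h by 2.54 ± 0.25 (adjusted p 6.94e-08) and than at 21 h by 1.01 ± 0.25 (adjusted p 0.0078). The second call was lost without replicate 2 at 9 h (0.91) or replicate 2 at 21 h (0.97). AT1G47400 read 9.51 and 6.68 at 3 h, 46.0 and 24.3 at 9 h, then 22.2 and 19.1 at 21 h in roots. It was higher at 9 h than at 3 h by 1.24 ± 0.39 (adjusted p 0.021) and differed from 21 h by 0.50 ± 0.39 (adjusted p 0.51). The first call was lost when replicate 1 or 2 at 3 h or replicate 1 at 9 h was left out, with values of 1.34, 1.13 and 0.89. Probe set 252367_at read 472 and 438, then 408 and 458, then 219 and 151 at 3, 9 and 21 h, and was called higher at 9 h than at 21 h (adjusted p 0.0022), with a difference of 0.95 and no call without replicate 2 at 21 h.

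**Figure D3:**
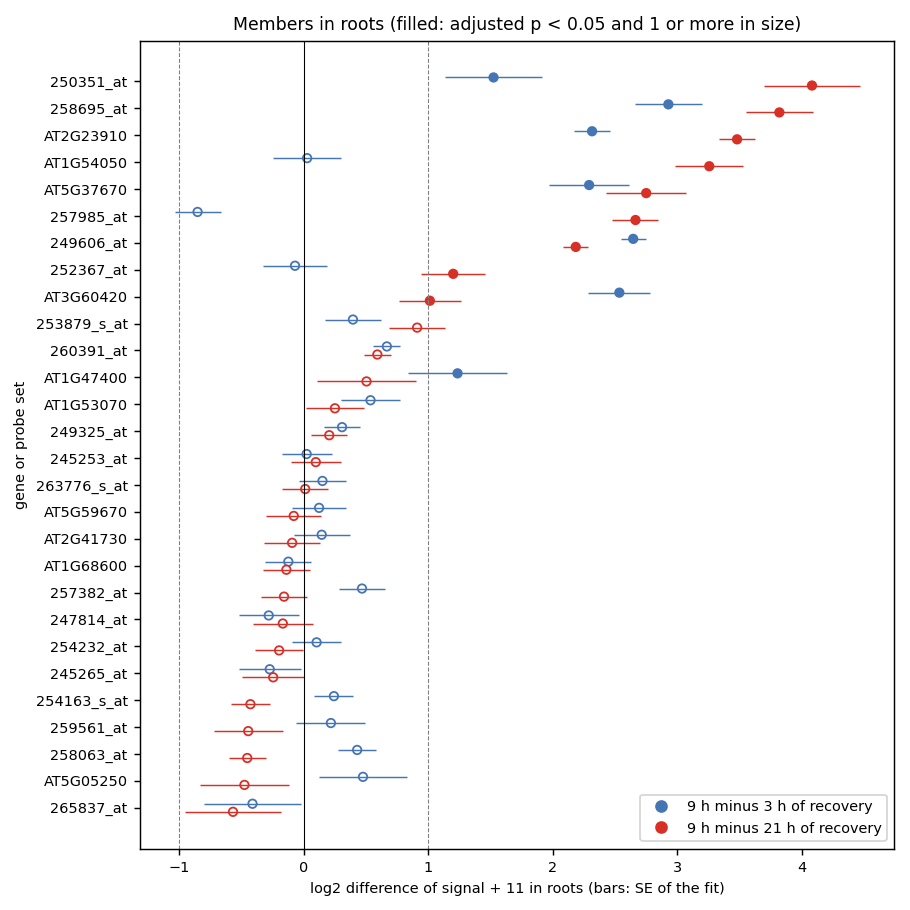
Log2 difference in roots of 9 h over 3 h (blue) and of 9 h over 21 h of recovery (red) for the 28 genes or probe sets, with the SE of the fit on 2 arrays per time as bars and filled points for called differences. Values of 9 h over 21 h run from -0.57 for 265837_at to 4.08 for 250351_at, with 9 filled red and 7 filled blue points, all to the right of 0.

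Other genes among the 28 had no called root difference at 9 h. Probe set 265837_at, whose 9 h shoot arrays read 1071 and 1196, read 65.8 and 61.6 at 3 h, 48.6 and 41.9 at 9 h, then 78.2 and 66.7 at 21 h in roots. AT5G05250 read 17.6 and 10.1, then 27.8 and 19.1, then 25.4 and 51.2. AT1G53070 read 66.9 and 64.5, then 104 and 96.9, then 90.0 and 75.5, with differences of 0.54 ± 0.23 and 0.25 ± 0.23. AT2G41730 read 17.7 and 15.3, then 18.1 and 20.7, then 18.2 and 25.0, with differences of 0.14 ± 0.23 and -0.09 ± 0.23. For 7 of the 28, AT5G59670, AT1G68600, 247814_at, 254232_at, 245265_at, 259561_at and 245253_at, no root array passed a signal of 30.

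Shoots and roots were compared at 0.25 h of heat, the earliest time. The genes were chosen for a high shoot signal at another time, which favours genes used in shoots. In this comparison 9 were higher in shoots, 4 were lower and 15 were not called, against 15.3% and 20.8% of all tested. The median difference of all probe sets was -0.32 as deposited, -0.15 after quantile normalization and -0.17 after scaling to the 75th percentile, and that of the 28 was 0.15 as deposited. AT1G68600 read 78.6 and 78.8 in shoots, against 3.18 and 3.77 in roots (2.63 ± 0.19, adjusted p 2.42e-12). AT5G59670 read 28.1 and 27.1 in shoots, against 0.446 and 0.855 in roots (1.73 ± 0.22). The root signals of both lie near the bottom of the scale, so the constant sets the size of these differences, which were 1.37 for AT1G68600 and 0.68 for AT5G59670, the second not called, with 44 in place of 11. AT1G47400 read 38.1 and 48.8 in shoots, against 11.8 and 9.81 in roots (1.31 ± 0.39), and its difference was 0.67 and not called with 44. Among those lower in shoots, AT2G23910 read 1.67 and 0.794 in shoots, against 28.0 and 33.0 in roots (-1.76 ± 0.15). AT1G53070 read 28.8 and 28.9 in shoots, against 71.8 and 77.1 in roots (-1.10 ± 0.23), and the difference was -0.85 after quantile normalization and -0.96 after 75th percentile scaling. The largest tissue differences were those of 245265_at, at 179.7 and 199 in shoots, against 8.51 and 9.18 in roots, and of 257382_at, at 3.51 and 3.44 in shoots, against 147 and 171 in roots.

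In roots, 7 of the 28 rose and 2 fell at 3 h against 0.25 h of heat, against 6.03% and 9.08% of all tested. The median was 0.08, against -0.16 for all tested. The 6 genes that rose in shoots also rose in roots, which was so for 3.31% of all tested. AT5G37670 read 3336 and 3209 at 3 h, against 18.7 and 18.4 at 0.25 h in roots (6.80 ± 0.32), AT1G54050 3621 and 3707, against 36.9 and 64.6 (5.93 ± 0.27), and AT2G41730 193 and 234, against 18.2 and 23.5 (2.82 ± 0.23). The root 25S signal was 2775 to 3385 at 3 h, against 566 to 878 at 0.25 h. The seventh was 249606_at, with 267 and 254 at 3 h, against 55.3 and 53.2 at 0.25 h (2.06 ± 0.10). Only 253879_s_at fell in both tissues, against 2.88% of all tested, by 1.87 in shoots and 1.77 in roots. The other decrease in roots was that of 257382_at (-1.21 ± 0.18).

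The difference between the tissues in this heat course was tested as an interaction. The change was lower in shoots than in roots for 11 of the 28, higher for 1 and not called for 16, against 4.92% lower and 6.14% higher among all tested. The median interaction was -0.88, against 0.04 for all tested. Of the 11, 5 belong to the 7 genes with no root array above 30 (AT1G68600, AT5G59670, 245265_at, 247814_at and 245253_at). For these a decrease in roots could hardly be measured, and the interaction largely repeats the decrease in shoots. Among all probe sets tested with no root array above 30, 12.6% were lower and 2.96% higher. Among the other 21 genes, 6 were lower, 1 was higher and 14 were not called, against 4.1% lower and 6.48% higher of the probe sets with a root array above 30, a split made after the values were seen. Their median was -0.82, against 0.06. AT1G68600 changed by -1.65 in shoots and by 0.08 in roots, a difference of -1.73 ± 0.26 (adjusted p 2.11e-05). AT5G59670 changed by -1.37 in shoots and by 0.27 in roots, a difference of -1.64 ± 0.31 (adjusted p 0.000247). Among those with higher root signals, 252367_at read 137 and 81.9 at 3 h, against 435 and 287 at 0.25 h in shoots, and 188 and 205 at 3 h, against 226 and 211 at 0.25 h in roots, an interaction of -1.49 ± 0.36. Probe set 260391_at changed by -0.75 in shoots and by 0.66 in roots (-1.42 ± 0.15), and 257382_at by 0.35 in shoots and by -1.21 in roots (1.56 ± 0.26). The interaction of AT3G60420 (-1.04 ± 0.35) was lost in 5 of the 8 fits that left out 1 array, with values of -0.77 to -1.05 in those 5. AT3G60420 passed a root signal of 30 only at other times. In roots it read 3.53 and 7.84 at 0.25 h and 2.65 and 7.18 at 3 h of heat, so a decrease there could hardly be measured either. AT1G47400 and AT5G05250 fell in shoots and were not called in roots, but the interaction was not called either, at -0.92 ± 0.56 and -0.90 ± 0.50. With 44 added, 7 of the 11 lower interactions were called.

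**Figure D4:**
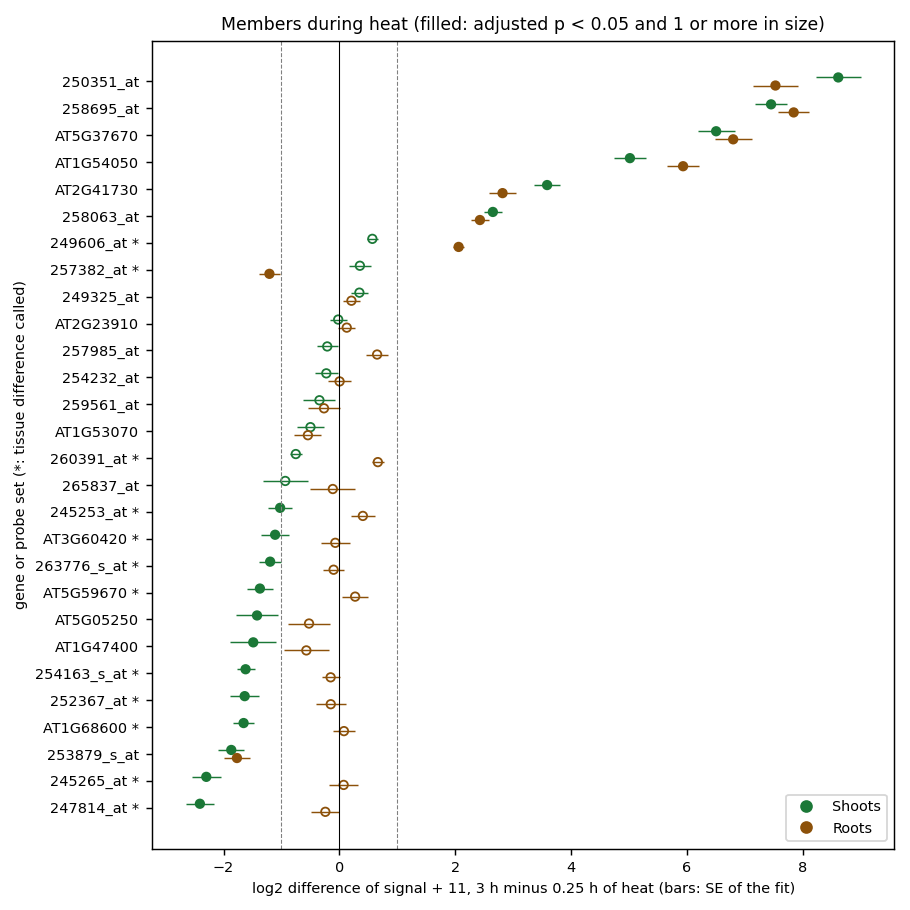
Log2 difference of 3 h over 0.25 h of heat in shoots (green) and roots (brown) for the 28 genes or probe sets, with the SE of the fit on 2 arrays per group as bars and filled points for called differences. The 6 at the top are filled in both tissues, while of the 12 filled green points left of 0 the root point is filled for 253879_s_at alone, and an asterisk marks the 12 with a called tissue difference.

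The samples at 0.25 h of heat and 21 h of recovery were taken at 3.25 and 3 h after lights on. Between them, 23 of the 28 differed by less than 1 log2 unit in shoots, 4 were higher at 21 h by 1 or more and 1 was lower, against 99.2% within 1 unit, 0.262% higher and 0.566% lower among all tested. The median difference of 21 h minus 0.25 h was 0.29. The 4 were AT5G37670 (107 at 21 h, against 23.9 at 0.25 h, mean signals), 258695_at, 250351_at and 265837_at, and the lower one was 252367_at, with 35.9 and 34.5 at 21 h, against 435 and 287 at 0.25 h. Since the 21 h arrays helped to choose the genes, these values are a description. The clock gene GI, which promotes flowering in long days, read 447 and 447 at 3 h, 50.3 and 39.9 at 9 h, then 43.4 and 36.9 at 21 h in shoots, and 353 and 327, then 46.4 and 58.8, then 160 and 145 at the same times in roots. It was thus low at 9 h in both tissues.

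None of the 28 was matched to the 17 gene lists drawn up for hormone, light, clock, starch, nutrient, cell wall, cell division and related functions. Genes were matched by symbol, so the 16 members with no listed gene and the 2 with 2 genes could not match. The other 10 carry only locus numbers as symbols, so the lack of a match says nothing about what the 28 do. Of the lists, 15 were matched to a probe set, 95 in all, of which 76 were tested. In roots 5 of the 76 were higher and 4 lower at 9 h than at 3 h, against 1.28% and 2.17% of all tested. At 9 h against 21 h in roots, 5 were higher and 5 lower, against 1.11% and 0.924%. In shoots 8 were higher and 10 lower than at 3 h, against 2.99% and 2.54% of all tested. Against 21 h in shoots, 6 were higher and 5 lower, against 2.95% and 2.24%. The lists were chosen with earlier results of these data known, so nothing is read from these shares. No gene of these lists was called higher in both shoot comparisons. Of 7 probe sets matched by symbol to the starch list none was called in roots. Of 22 matched to wall loosening, 2 were higher and 3 lower at 9 h than at 3 h there. Of 5 genes matched by symbol to the flavonoid list UGT78D1 and UGT78D2, which attach sugars to flavonols, were higher at 9 h than at 3 h in both tissues. UGT78D1 read 90.9 and 70.8 at 3 h, 423 and 378 at 9 h, then 245 and 269 at 21 h in shoots, and 18.1 and 20.6, then 138 and 132, then 35.4 and 38.3 in roots. Against 21 h the difference in shoots was 0.62 ± 0.19, which kept it out of the 28.

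A further list, of genes for the iron deficiency response, iron uptake and iron storage, was drawn up after AT1G47400 was seen among the 28, so it is no independent evidence. Since 8730 of the 22746 probe sets had no listed gene, a locus of this list without a match may still be on the array. Of the 29 loci in the list 6 were matched to a probe set, with 7 probe sets in all, of which 6 were tested. In shoots 2 were higher at 9 h than at 3 h, AT1G47400 itself and BHLH101, a transcription factor gene induced by iron shortage, and only AT1G47400 was higher than at 21 h. BHLH101 read 5.65 and 2.15 at 3 h, 23.8 and 23.1 at 9 h, then 19.1 and 29.6 at 21 h in shoots, so its 9 h and 21 h arrays overlapped. In shoots BHLH101 also fell at 3 h against 0.25 h of heat (-1.10 ± 0.25, adjusted p 0.00057), as AT1G47400 did. BHLH101 signals were low, from 1.57 to 29.6 on the shoot arrays of recovery, so the constant weighs on the size of this difference. PYE, another regulator of the iron deficiency response, read 70.0 and 43.9, then 83.1 and 86.7, then 49.5 and 49.0 in shoots, with differences of 0.52 ± 0.16 from 3 h and 0.67 ± 0.16 from 21 h, neither called. In roots AT1G47400 alone was higher at 9 h than at 3 h, and none was higher than at 21 h. Both probe sets of AT1G74770 were lower at 9 h than at 21 h there, one reading 83.6 and 80.3 at 9 h, against 229.9 and 398 at 21 h (-1.76 ± 0.20).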

How the data were processed

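Affymetrix ATH1 arrays gave 1 deposited table of 32 columns and 22810 probe sets. The values are linear MAS5 signal intensity, made by the authors and named in the submitters' processing notes, whose version is not given in the sources used here. Each array's 2% trimmed mean was 100.006 to 100.012, so the arrays had been scaled to a like mean. Background, probe summary and scaling were left as deposited. After 64 control probe sets were left out, 13513 of 22746 had 1 listed gene, 503 several and 8730 none. The gene table's assembly is TAIR10.1, used for names only. Signals were taken as log2(signal + 11), which understates changes of low genes. A probe set was tested if some group had both of its arrays over their own 40th percentile (16782 were). The fit took all 32 arrays and 16 group means (limma 3.58.1, lmFit, eBayes with trend, R 4.3.3; 16 residual degrees of freedom), with Benjamini-Hochberg adjustment within each contrast over all tested probe sets. A difference was called at an adjusted p below 0.05 and a size of at least 1. The code was tested on simulated data. Summaries and figures used Python 3.11.15, pandas 2.3.3 and matplotlib 3.10.9.

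The members and lists were chosen with earlier results of these data known. By the naming rule any member with 1 listed gene could be named. Values by array were given for those with the largest smaller excess (up to 15) and up to 6 members each way with the largest called difference in a contrast, the 3 nearest the threshold on each side were listed, and up to 4 other genes of a list and genes a result turns on could be added. The 2 small heat shock genes carry only locus numbers as symbols in the tables, so the rule kept them, and counts without them were added after seeing the data. A pattern matching a purine permease was taken off the senescence list, and the iron list was added after the members were known. Alternatives varied the constant, filter, scaling, trend, arrays fitted, replicate block and arrays left out. The number of arrays, 2 per group, limits the precision.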

Additional observations from a re-analysis of the deposited data

Results flagged for a closer look

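Changes from 0.25 h to 3 h of heat that differed between shoots and roots, tested as an interaction in limma with an adjusted p below 0.05 and a size of at least 1, are given as shoots minus roots on the log2 scale. They were -2.37 for 245265_at, -2.17 for 247814_at, -1.73 for AT1G68600, -1.64 for AT5G59670, -1.49 for 249606_at, -1.49 for 252367_at, -1.47 for 254163_s_at, -1.43 for 245253_at, -1.42 for 260391_at, -1.10 for 263776_s_at and -1.04 for AT3G60420. For 245265_at, 247814_at, AT1G68600, AT5G59670 and 245253_at no root array passed a signal of 30, so a decrease in roots could hardly be measured and the difference largely repeats the decrease in shoots. The same limit holds for AT3G60420, whose root signals at 0.25 h and 3 h of heat were at most 7.84. The change was higher in shoots for 257382_at, at 1.56. The call for 263776_s_at was lost when replicate 2 of the shoots or replicate 1 of the roots at 0.25 h, or replicate 1 of the shoots at 3 h, was left out (-0.97, -0.99 and -0.96). For 249606_at the difference reflects values of 0.57 in shoots and 2.06 in roots, both increases in signal, of which only the one in roots was called.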

How the results depend on the processing

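Of 93 called differences of single members, no alternative turned the direction. Over 1232 alternative values, 1163 stayed called and 69 did not, 32 of them with 44 as the constant, 24 with an array left out, 11 under the 2 other scalings and 2 under other settings. With 44, members called lower at 3 h of heat in shoots numbered 4 (12 with 11), lower at 1 h of heat 1 (6), higher at 1 h of recovery 2 (6), lower at 3 h of heat in roots 0 (2), higher and lower in shoots than in roots 5 and 2 (9 and 4), and lower interactions 7 (11). The constant compresses differences between low signals. With a constant of 3, 2 interactions were called higher (1 with 11). The rule gave 47 probe sets with an excess of 1 and 18 with 1.5, in place of 28 with 1.2. It gave 19 with 44, 28 with 3, and 26 after either other scaling, of which 24 (quantile) and 26 (75th percentile) were among the 28.

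With each array left out in turn the rule gave 24 to 36. Members called higher and lower were then 5 to 7 and 0 to 0 for roots at 9 h against 3 h, 7 to 9 and 0 to 0 against 21 h, 6 to 6 and 10 to 13 for 3 h of heat in shoots, 6 to 6 and 5 to 7 for 1 h of heat, 5 to 7 and 7 to 7 for 1 h of recovery, 7 to 7 and 2 to 2 for 3 h of heat in roots, 9 to 10 and 4 to 5 for shoots against roots, and 1 to 2 and 9 to 12 for the interaction. Without the 2 small heat shock genes the rule gave 26, of which 6 and 7 were higher at 9 h in roots than at 3 h and 21 h and 4 rose at 3 h of heat in shoots.

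A replicate block changed none of these counts, with 7 and 9 members higher in roots at 9 h. Same-numbered arrays of different groups showed no clear shared deviation, with correlations of -0.19 to 0.16. Of 120 pairs of groups, 4 were over 0.1. Whether same-numbered arrays came from a common culture was not tested, since a small shared effect could go unseen with so few arrays per group. Promoter motif shares were planned and were not run, because no promoter sequences were used here. Members whose signal lay near the bottom of the scale, such as AT5G59670 in roots, could show no decrease there.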
